A study of Mus musculus with 6 samples.

Results

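The genes described here encode the mitochondrial ribosomal proteins, the protein components of the ribosome that works inside mitochondria. They were chosen by name, as every gene on the array whose symbol starts with Mrpl (large subunit) or Mrps (small subunit) and a digit, and a probe was compared between treatments if its signal was well above background on all 3 arrays of at least 1 group. The name rule found 78 genes with 100 probes among 55681 probes, 49 genes of the large and 29 of the small subunit. Of these, 77 genes with 99 probes met the background rule. The 99 probes were well above background on all 6 arrays, while the only probe of Mrpl21 was so on 0 arrays and the gene was not compared. The flags that chose the genes say nothing about a difference between treatments, and the genes were picked for description with earlier results of these arrays known.

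The arrays profiled neural precursor cells taken from the dentate gyri of male C57BL6/JRj mice 8 weeks old, which give rise to new neurons in the adult hippocampus. They were grown as an attached monolayer with 20 ng/ml each of EGF and bFGF. Cultures were exposed for 48 h to human LDL, a cholesterol-carrying lipoprotein, or to saline. The LDL dose was 100 ug/ml by the treatment protocol, but the descriptions of single samples use another volume unit, which leaves the unit uncertain. Each group had 3 arrays, from independent experiments that used separate passages, and all 6 lay on 1 slide. The share of probes well above background ran from 55.9% to 66.9% over the arrays, and precision is bounded by how few arrays there are. Of 9 precursor cell markers, 8 were well above background on all 6 arrays, among them Nes and Sox2, and Prom1 was on 4. Markers of other cell types were also present: 7 of 7 for astrocytes, 8 of 8 for oligodendrocytes, 6 of 8 for neurons, 5 of 7 for microglia and 3 of 8 for vessels were well above background on all 6 arrays. Dcx and Neurod1 (neurons), P2ry12 (microglia) and Cdh5, Pdgfrb and Rgs5 (vessels) were so on 0 arrays. Among these markers only Gfap, an astrocyte filament, passed an adjusted p of 0.05 in limma. It rose by 1.35 on the log2 scale by 1 probe (adjusted p = 0.0215 in limma). By another probe it had 0.15 (adjusted p = 0.925 over all probes in limma). The first probe was dim: after subtraction of the array's 75th percentile, its mean log2 signal was -3.45 with saline and -2.10 with LDL. Over all features the median per array ran from -0.30 to -0.23. The other 6 astrocyte markers had negative values that did not pass (list median -0.24). Of the 8 precursor markers tested, 5 were negative and 0 passed (list median -0.10). The part of these differences in the values below was not tested.

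Mitochondria keep a small genome whose messenger RNAs encode core subunits of the respiratory chain, and the mitoribosome is the only machine that translates them. All of its proteins are encoded in the nucleus, made in the cytosol and imported. Part of the proteins have counterparts in bacteria, and the others were added during the evolution of mitochondria. Neural stem and precursor cells are known to rely largely on glycolysis and to turn to respiration as they become neurons.

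Promoters of these genes are known for letters bound by NRF1, ETS factors such as GABP, and YY1. RefSeq windows of the assembly GRCm38.p6, from 250 bases before to 50 after a start site, were found for 69 of the 78 genes, 75 windows in all. Searched on both strands, CCGGAAG (ETS) stood in 34.7% of the 75 windows and in 8.86% of all 32851 windows of that length. AAGATGG (YY1 core) stood in 17.3% against 6.34%, GCATGCG (NRF1 core) in 10.7% against 3.58%, GGGCGG (GC box) in 52.0% against 35.7% and CACGTG (E-box) in 9.33% against 7.15%. The ETS and YY1 letters shared bases in 0 of the 75 windows. By subunit, the ETS letters stood in 31.2% of 48 large subunit and 40.7% of 27 small subunit windows, and the NRF1 core in 14.6% and 3.7%. These are matches of letters and not bound sites. The windows of the 2 genes with the smallest p in each direction that have one are shown to set the sequence beside the expression values below. They are printed 5′ to 3′ up to the base before the start site, with searched letters in capitals. Of several start sites of a gene, the one with the lowest coordinate is shown.
Mrpl10, chr11:97041332-97041581, + strand: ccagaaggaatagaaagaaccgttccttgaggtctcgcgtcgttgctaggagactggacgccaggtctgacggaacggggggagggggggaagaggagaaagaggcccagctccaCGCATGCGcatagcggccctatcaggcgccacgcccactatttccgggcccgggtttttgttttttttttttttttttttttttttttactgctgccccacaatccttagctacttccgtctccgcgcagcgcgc
Mrps31, chr8:22411090-22411339, + strand: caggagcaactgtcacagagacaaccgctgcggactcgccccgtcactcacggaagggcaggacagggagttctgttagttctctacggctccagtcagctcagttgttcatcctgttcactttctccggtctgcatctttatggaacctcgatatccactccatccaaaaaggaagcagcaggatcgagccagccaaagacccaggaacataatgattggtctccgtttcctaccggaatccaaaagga
Mrpl48, chr7:100583131-100583380, - strand: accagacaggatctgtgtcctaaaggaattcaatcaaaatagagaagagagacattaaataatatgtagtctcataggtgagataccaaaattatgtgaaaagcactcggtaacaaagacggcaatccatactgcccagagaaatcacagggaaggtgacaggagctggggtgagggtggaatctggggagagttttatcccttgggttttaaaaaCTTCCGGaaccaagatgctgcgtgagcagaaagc
Mrpl2, chr17:46645971-46646220, + strand: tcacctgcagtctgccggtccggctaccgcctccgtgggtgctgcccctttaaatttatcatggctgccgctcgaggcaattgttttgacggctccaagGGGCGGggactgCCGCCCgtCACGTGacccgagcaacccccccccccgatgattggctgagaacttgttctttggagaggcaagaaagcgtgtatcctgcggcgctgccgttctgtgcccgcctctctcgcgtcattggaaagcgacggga
The Mrpl10 window held the NRF1 core on both strands, starting at bases -135 and -134 from the start site. The Mrpl48 window held the ETS letters at -34, and the Mrpl2 window 2 GC boxes at -151 and -139 and an E-box at -131. No searched letters were found in the Mrps31 window.

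LDL was compared with saline to ask which transcripts differ after the lipoprotein. None of the 77 genes passed (0 higher and 0 lower at an adjusted p of 0.05 in limma, with Benjamini-Hochberg adjustment over all 24213 features), against 0.136% of all features (0.0207% higher and 0.116% lower). At an unadjusted p below 0.05 in limma there were 2 genes, both higher, and 0 lower, or 2.6% of the genes against 7.49% of all features (2.97% higher and 4.52% lower). The differences were small and leaned upward. The median log2 fold change was 0.07 over the 77 genes and -0.03 over all features tested, and 59 genes had a positive and 18 a negative value. That is 76.6% positive, against 43.7% of all features. All features are an unlike set, since 14930 of the 24213 had a gene name and most were dimmer. After subtraction of the array's 75th percentile, the median log2 signal per array ran from -0.30 to -0.23 over all features. Over the 77 genes it ran from 3.23 to 3.51. Of the 77 genes, 57 had a 95% interval of the log2 fold change that lay wholly within 0.5 of 0, and 76 had one within 1, so larger differences were outside the intervals of nearly all of them. For smaller ones, a gene that did not pass is not shown to be unaffected. The exception was Mrps28, which rests on a single low spot described below. In extracts of whole cultures, less RNA per cell and fewer cells of a type cannot be told apart.

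**Figure D1:**
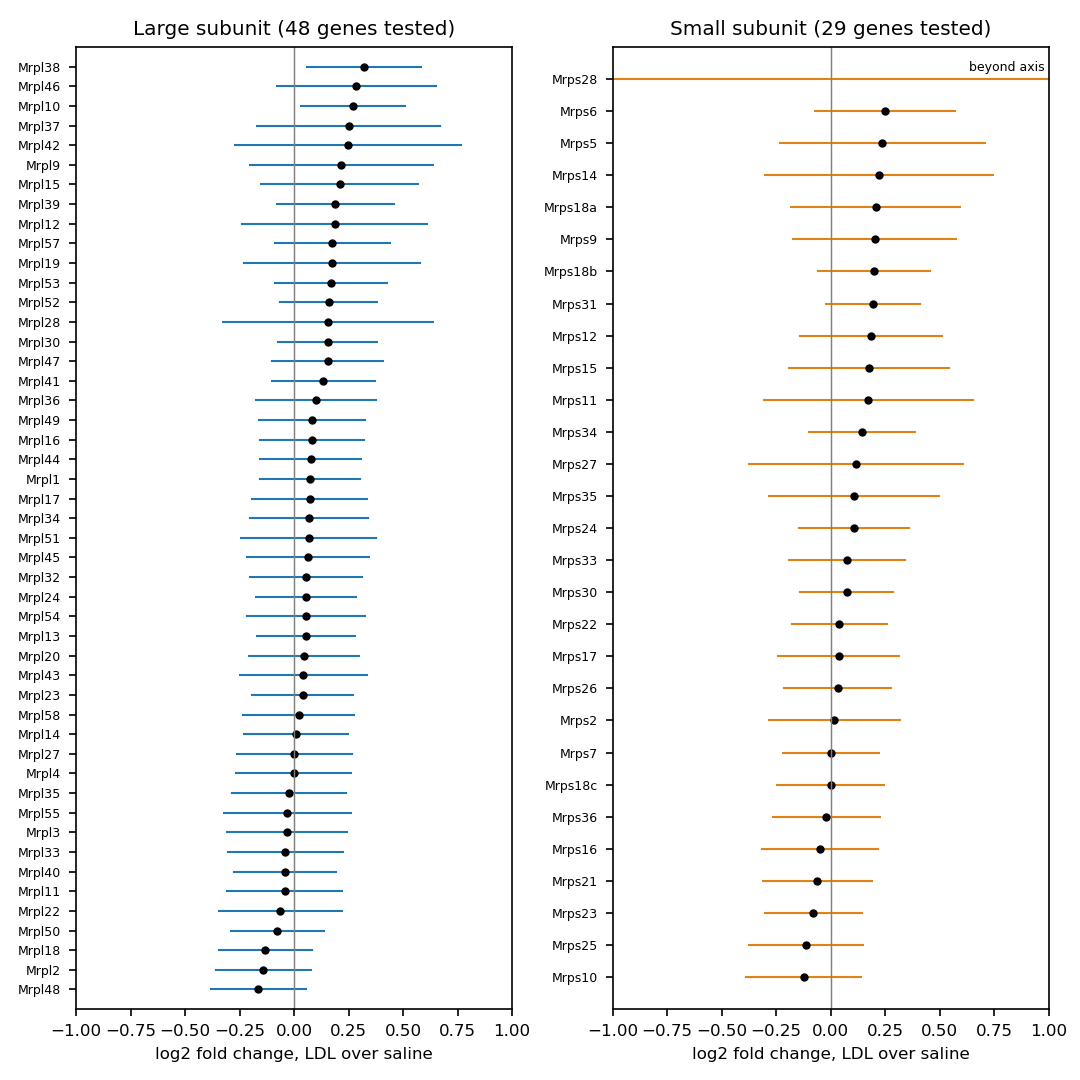
Log2 fold change of LDL over saline for each of the 77 genes tested, large subunit on the left and small subunit on the right (points, with 95% intervals from limma as lines, 3 arrays a group). Of the 77 intervals, 2 exclude 0, those of Mrpl38 and Mrpl10, and the value and interval of Mrps28 run beyond the axis.

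Most of the differences were under 0.2 on the log2 scale. Of 48 large subunit genes, 28 had a value within 0.1 of 0, 13 one from 0.1 to 0.2 in size, and 7 one of 0.2 or more. Of 29 small subunit genes these counts were 12, 11 and 6. All 13 values of 0.2 or more were positive, Mrps28 among them. Their number was 5 without saline replicate 1 and 28 without saline replicate 2, again all positive, and 11 to 17 with any other array left out. For 7 genes the LDL arrays all lay above the saline arrays and for 3 all below. That is 9.09% and 3.9% of the genes, against 5.83% and 8.79% of all features.

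In the large subunit, the stalk calls translation factors to the ribosome, and Mrpl10 anchors it. Mrpl10 had 1.07, 1.26 and 1.15 on the saline arrays, against 1.50, 1.45 and 1.35 on the LDL arrays. These and all levels given here are log2 signals after subtraction of the array's 75th percentile, listed for replicates 1 to 3. The groups did not overlap. LDL minus saline came to 0.27 (SE 0.10, with a 95% interval from 0.03 to 0.51), a 1.21-fold difference that did not pass (adjusted p = 0.611 in limma). Its dimmer probe had 0.20. Mrpl12, the stalk protein that is also reported to bind the mitochondrial RNA polymerase, had 3.86, 4.53 and 4.26 on the saline arrays, against 4.30, 4.49 and 4.42 on the LDL arrays. All LDL values lay inside the saline range, and the value of 0.19 (SE 0.18, adjusted p = 0.871 in limma) was 0.00460 without saline replicate 1. Mrpl11, at the base of the stalk, had -0.04 (95% interval -0.31 to 0.22).

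The central protuberance, on top of the large subunit, holds several proteins that bacteria lack. Among them, Mrpl38 had 0.47, 0.60 and 0.30 on the saline arrays, against 0.83, 0.76 and 0.74 on the LDL arrays. The lowest LDL array lay above the highest saline array. It had the smallest p of the 77 genes, at a difference of 0.32 (SE 0.11, with a 95% interval from 0.06 to 0.58), which is 1.25-fold and did not pass (adjusted p = 0.567 in limma). Mrpl46, of the same region, had 0.83, 1.37 and 1.20 on the saline arrays, against 1.32, 1.51 and 1.42 on the LDL arrays. Saline replicate 1 was low and saline replicate 2 lay within the LDL range. The difference of 0.29 was 0.13 without saline replicate 1 and 0.40 without saline replicate 2. Mrpl48, also of the protuberance, went the other way: 2.88, 2.90 and 2.80 on the saline arrays, against 2.76, 2.67 and 2.66 on the LDL arrays. Its groups did not overlap, and its log2 fold change of -0.16 (SE 0.09, adjusted p = 0.772 in limma) was the lowest of the 77 genes.

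Mrpl2 and Mrpl18, large subunit proteins with bacterial counterparts, were the other genes whose LDL arrays all lay below the saline arrays. Mrpl2, a protein next to the site where peptide bonds form, had 4.96, 5.03 and 4.94 on the saline arrays, against 4.77, 4.85 and 4.88 on the LDL arrays, a difference of -0.14 (SE 0.09). Mrpl18 had 4.26, 4.24 and 4.15 on the saline arrays, against 4.07, 4.06 and 4.12 on the LDL arrays, a difference of -0.13 (SE 0.09). With each of the 6 arrays left out in turn, both kept a negative value, from -0.16 to -0.11 in each case. The Mrpl2 value was smaller with the authors' processed values (-0.08) and with normexp and quantile normalization (-0.09).

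Other large subunit genes with arrays that did not overlap were Mrpl39, Mrpl52 and Mrpl30, all higher with LDL. Mrpl39 had 3.09, 3.03 and 2.82 on the saline arrays, against 3.26, 3.13 and 3.11 on the LDL arrays. Mrpl52 had 5.05, 5.14 and 4.98 on the saline arrays, against 5.24, 5.23 and 5.17 on the LDL arrays. Mrpl30 had a difference of 0.15 (SE 0.10). In these 3 genes the adjusted p in limma was between 0.781 and 0.790. Mrpl45, which ties the exit tunnel to the inner membrane, stood at 0.06 (interval -0.22 to 0.34). Mrpl3, a core protein with a bacterial counterpart, had -0.03, Mrpl41 0.13 and Mrpl44, which carries a ribonuclease-like fold, 0.08.

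**Figure D2:**
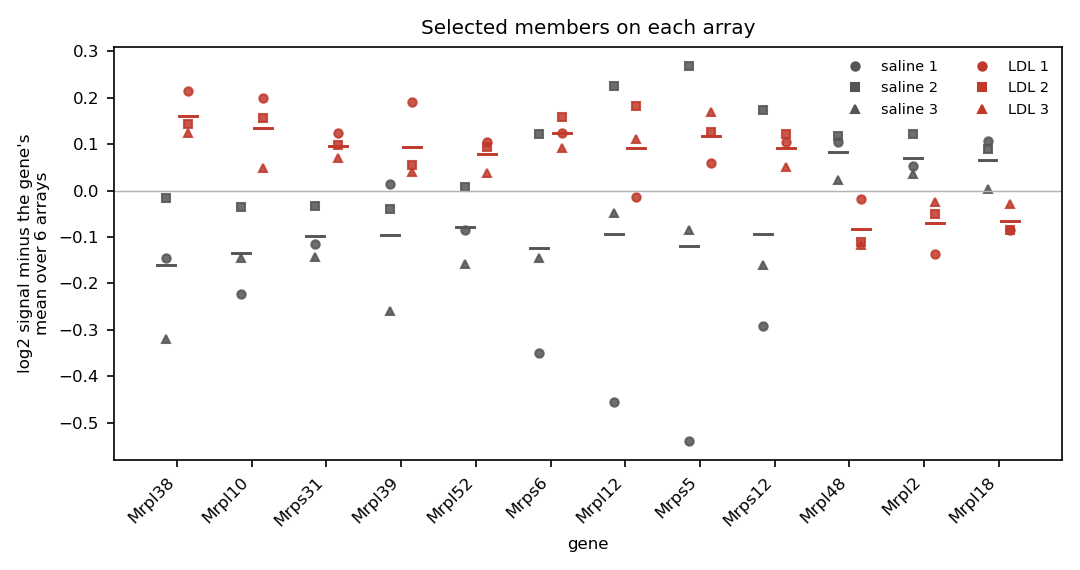
Log2 signal of 12 selected genes on each array, minus the gene's mean over the 6 arrays (grey, saline; red, LDL; circles, squares and triangles for replicates 1, 2 and 3; bars, group means). For Mrps6, Mrpl12, Mrps5 and Mrps12 the LDL symbols lie closer together than the saline symbols. In these genes the saline symbols reach from below the LDL symbols to above or level with them, with saline replicate 1 lowest.

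In the small subunit, Mrps31, a protein without a bacterial counterpart, had 2.60, 2.68 and 2.57 on the saline arrays, against 2.84, 2.81 and 2.79 on the LDL arrays. The groups did not overlap, and LDL minus saline came to 0.19 (SE 0.09, with a 95% interval from -0.02 to 0.41; adjusted p = 0.709 in limma). Mrps34 also had arrays that did not overlap, with a difference of 0.14 (SE 0.10). Mrps6, with a bacterial counterpart, had 5.23, 5.70 and 5.43 on the saline arrays, against 5.70, 5.74 and 5.67 on the LDL arrays. Saline replicate 2 lay within the LDL range and the difference was 0.25 (SE 0.14), 0.14 without saline replicate 1 and 0.37 without saline replicate 2. Mrps12, a protein of the decoding centre where codons are read, had 3.10, 3.57 and 3.23 on the saline arrays, against 3.50, 3.51 and 3.44 on the LDL arrays. Here saline replicate 2 was the highest array, and the difference was 0.19 (SE 0.14), 0.09 without saline replicate 1 and 0.32 without saline replicate 2. Mrps5 had 0.68, 1.49 and 1.14 on the saline arrays, against 1.28, 1.35 and 1.39 on the LDL arrays, again with the LDL arrays inside the saline range. Its difference of 0.24 (SE 0.20) was 0.03 without saline replicate 1.

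The 3 Mrps18 paralogs descend from 1 bacterial protein, and each ribosome carries them at separate places. Mrps18c had 3.92, 3.92 and 3.69 on the saline arrays, against 3.83, 3.84 and 3.87 on the LDL arrays, and its 95% interval ran from -0.25 to 0.25. Mrps18a, which in structures of the mammalian ribosome sits in the large subunit despite its name, had 0.21 (95% interval -0.18 to 0.60). Mrps18b had 3.62, 3.77 and 3.57 on the saline arrays, against 3.97, 3.81 and 3.77 on the LDL arrays, a difference of 0.20 (95% interval -0.06 to 0.46). The dimmer probe of Mrps18b gave 0.62, and with the mean of both probes the value was 0.41 (adjusted p = 0.623 in limma). The intervals of the paralogs overlap, and differences between them were not tested.

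Mrps30, another protein named for the small subunit but placed in the large one, had 0.07 (95% interval -0.14 to 0.29). Mrps36, now known as a part of the 2-oxoglutarate dehydrogenase complex, had -0.02 (95% interval -0.27 to 0.23). Mrps10 at -0.12 and Mrps25 at -0.11 were the lowest of the small subunit genes, and neither had groups apart. Mrps16 had -0.05, Mrps21 -0.06 and Mrps22, a gene linked to inherited mitochondrial disease, 0.04.

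Mrps28 had the largest value of all the genes, 1.80 (95% interval -1.53 to 5.13, adjusted p = 0.833 in limma). Its single spot gave a processed signal of 10220 and 8394 on saline replicates 1 and 2, 10740, 10800 and 11800 on the LDL arrays, and 254.7 on saline replicate 3. The low spot was 45.4-fold below the mean of the other arrays on the log2 scale, yet was marked well above background and carried no outlier flag. It lies in a narrow strip with scattered low spots on that array. Within 3 rows and columns of it, 17 spots were well above background on all arrays, a filter that leaves out spots lost to background. Against the mean of the other arrays they had a median of -0.11 on saline replicate 3, from -7.30 to 0.12. On saline replicate 3, 89 spots were at least 8-fold lower than on each of the other arrays, and all of them lay in array columns 34 to 42 of 164 and rows 231 to 384 of 384. Saline replicate 1 had 4 such spots and the other 4 arrays had 0. The strip's block holds 3 spots of these genes, and the other 2, for Mrpl39 and Mrps36, differed from the mean of the other arrays by -0.07 and -0.02. Without the low value, which leaves 2 saline arrays, Mrps28 stood at -0.04 (SE 0.13, with a 95% interval from -0.36 to 0.28).

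The subunits were compared by their medians, as a description with no test. The median log2 fold change was 0.07 over 48 large subunit genes (quartiles 0.00 and 0.16, 36 positive) and 0.11 over 29 small subunit genes (quartiles 0.00 and 0.19, 23 positive). The difference was -0.0399, large minus small. The difference between the subunits' median levels had an SD of 0.0443 between replicate arrays. That SD is of levels on single arrays and not of fold changes, so it does not measure the error of -0.0399. Without the low Mrps28 value the small subunit median was 0.07 and the difference -0.00703. With Mrps30 and Mrps18a counted in the large subunit and Mrps36 in neither, the medians were 0.07 and 0.11. Split by origin, the medians were 0.05 over 28 large subunit genes with a bacterial counterpart and 0.08 over 20 without, and 0.17 over 18 small subunit genes with a counterpart and 0.07 over 11 without. In that order, LDL arrays lay wholly above and wholly below saline in 2 and 2, 3 and 1, 0 and 0, and 2 and 0 genes, against 5.83% and 8.79% of all features. The 18 genes include Mrps28 with its low spot, and the split was not repeated without it or without single arrays. Relative to each gene's mean over the 6 arrays, saline replicates 1 and 2 had medians of -0.16 and 0.17 over the 18 genes. Over the 11 genes these were -0.06 and 0.11.

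Single arrays differed more than the groups. Relative to each gene's mean over the 6 arrays, the median over the 77 genes was -0.10, 0.12 and -0.08 on saline replicates 1 to 3 and 0.00, 0.06 and 0.04 on LDL replicates 1 to 3. The LDL arrays sat between the saline arrays, with saline replicate 2 above them and saline replicates 1 and 3 below. The median over all features was 0.08 on saline replicate 1 and between -0.01 and 0.00 on the others, so the pattern of these genes was not that of the whole array. Saline replicate 1 was the lowest of the 6 arrays for 37 genes, saline replicate 3 for 28 and the 3 LDL arrays together for 10, while saline replicate 2 was the highest for 41. Saline replicate 2 lay above all LDL arrays for 44 of 77 genes (57.1%, against 33.7% of all features). Saline replicates 1 and 3 lay below all LDL arrays for 54 and 56 genes (70.1% and 72.7%, against 26.8% and 29.7%). Both subunits did the same, with medians of -0.10, 0.11 and -0.07 in the large and -0.11, 0.13 and -0.08 in the small subunit over saline replicates 1 to 3.

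**Figure D3:**
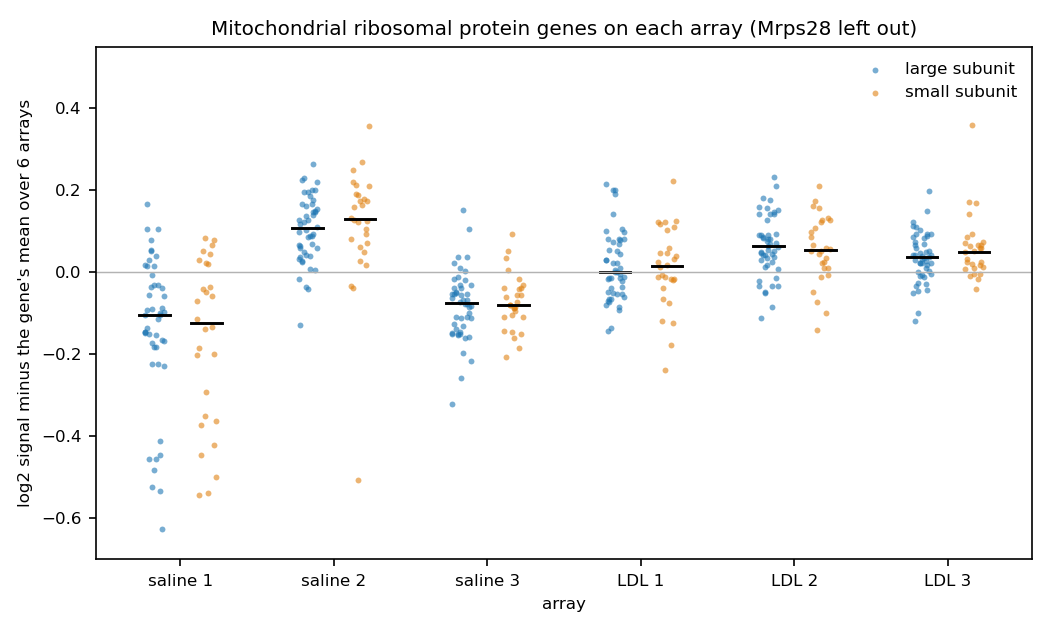
Log2 signal of 76 genes on each array minus the gene's mean over the 6 arrays (blue, large subunit; orange, small subunit; black bars, medians; Mrps28 left out). Saline replicate 2 sits highest, saline replicates 1 and 3 lowest and the LDL arrays between, and on saline replicate 1 a set of 13 genes lies 0.41 to 0.63 below the mean.

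The spread between replicates was accordingly wider with saline. The SD over 3 arrays was larger with saline than with LDL for 69 of the 77 genes, with a median SD of 0.15 among saline and 0.05 among LDL arrays. This also held for 75.8% of all features, whose median SDs were 0.19 and 0.10. The median level of the genes had an SD of 0.13 between replicate arrays. That is a spread of levels on single arrays, so it does not measure the error of the median difference of 0.07.

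**Figure D4:**
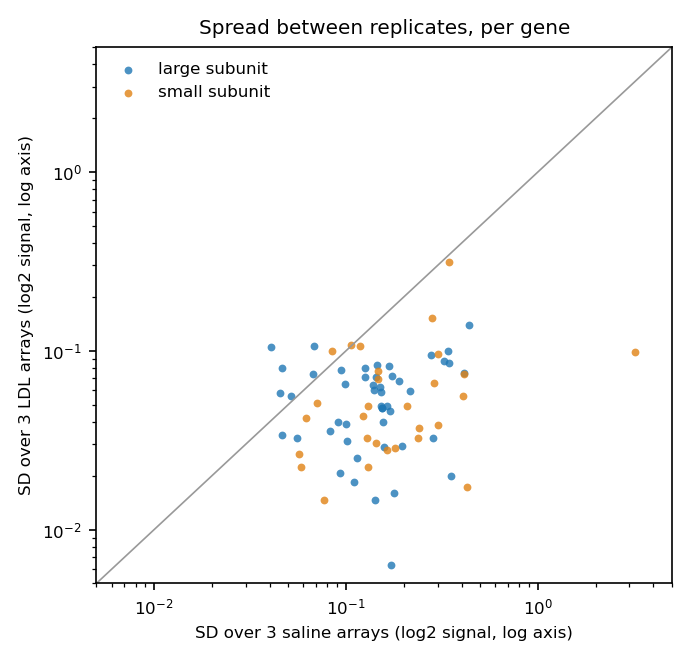
SD of the log2 signal over 3 saline arrays (horizontal) and 3 LDL arrays (vertical) for each gene, both on log axes, with the line of equal SD. Of 77 genes, 69 lie below the line, and the point far to the right is Mrps28.

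A set of 13 genes was at least 0.4 below its own mean on saline replicate 1, a limit chosen after the values were seen. That is 17.1% of the 76 genes left without Mrps28, against 5.33% of all features. They were Mrpl9, Mrpl12, Mrpl15, Mrpl19, Mrpl28, Mrpl37, Mrpl42 and Mrpl46 of the large and Mrps5, Mrps9, Mrps11, Mrps18a and Mrps27 of the small subunit. Mrpl42 was the most extreme, with 1.67 on saline replicate 1, 2.45 and 2.40 on the other saline arrays and 2.26 to 2.51 with LDL. On the other 5 arrays, 1 gene (Mrps14 on saline replicate 2, at 2.95) was that far below its mean. The 13 genes had a median log2 fold change of 0.21, which was 0.03 without saline replicate 1. The other 63 genes had 0.05, and 0.00612 without that array. Since the 13 were picked for low values on that array, this contrast follows from the choice and is a description.

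Of the set that was low on saline replicate 1, only Mrpl15 had 2 probes tested, and they did not share the dip. Its brighter probe differed by -0.46 from the mean of the other saline arrays and its dimmer probe by 0.05. Their log2 fold changes were 0.21 and 0.07. The pairs below use this difference and not the deviation that chose the set, and the genes named below are outside it. Of 22 genes with 2 probes tested, 7 had a dimmer probe at least 0.4 lower on saline replicate 1 than on the mean of the other saline arrays, and 1 had such a brighter probe. Over all 22 pairs there was no such lean: the dimmer probe was the lower one in 11, and the median of this difference was -0.09 for both kinds of probe. For Mrps18b the difference was -0.83 for the dimmer probe and -0.05 for the brighter one. For Mrps23 these differences were -0.58 and 0.04, and for Mrpl50 -0.42 and 0.06. In other genes the dimmer probe went the other way, with 0.81 for Mrpl41. The 2 probes gave log2 fold changes of opposite sign in 10 of the 22 genes, the widest being Mrps14 (0.22 and -0.16), Mrps23 (-0.08 and 0.23) and Mrpl50 (-0.08 and 0.14). The size of a single small difference therefore depends on the probe.

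Leaving out each array in turn moved the median of the 77 genes between 0.01 and 0.15. It was 0.01 without saline replicate 1, with 43 genes positive and 34 negative, and the all-feature median was then 0.000854. It was 0.15 without saline replicate 2, with 68 positive, and 13 genes then had an unadjusted p below 0.05 in limma, all of them higher. That is 16.9% of the genes, against 15.6% of all features in either direction and 5.94% in the higher direction in the same fit, and 0 passed the adjusted threshold (smallest adjusted p = 0.295). It was 0.04 without saline replicate 3 and between 0.06 and 0.08 without any 1 LDL array. The large subunit median ran from 0.00536 to 0.14 and the small subunit median from 0.03 to 0.16. Of the 77 genes, 43 kept the sign of their value in all 6 fits, 36 positive and 7 negative. The slide's row 1, which held 2 arrays of each group, gave a median of 0.03, and row 2, holding 1 of each, gave 0.11.

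**Figure D5:**
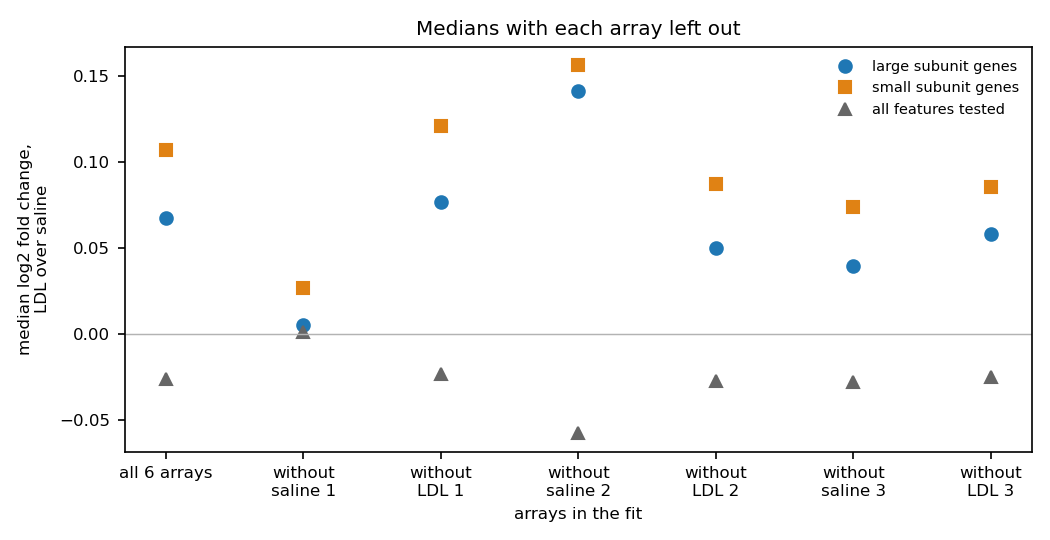
Median log2 fold change of LDL over saline with all 6 arrays and with each array left out in turn (circles, large subunit genes; squares, small subunit genes; triangles, all features tested). Both subunit medians come close to that of all features without saline replicate 1 and lie farthest from it without saline replicate 2.

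Genes that build and serve the mitoribosome were examined as lists, again by counts with no test. None of their members passed over all features. Of 5 mitoribosomal proteins under other symbols, 4 had a positive value (median 0.03), with Gadd45gip1 at 0.10 and Ptcd3 at 0.09. Of 17 translation factors, 12 were positive (median 0.12). LDL arrays all lay above saline in 2 of them and below in 0 (11.8% and 0%, against 5.83% and 8.79% of all features). Among them Gfm2, a factor that recycles ribosomes, had 0.68 ± 0.01 with saline and 0.90 ± 0.04 with LDL (mean ± SD, n = 3 each), a difference of 0.22 (SE 0.09, adjusted p = 0.636 in limma), and Mtif3, an initiation factor, had 0.29 (SE 0.17). Of 17 genes tested for ribosome assembly and rRNA modification, 15 were positive (median 0.15). LDL arrays all lay above saline in 4 of the 17 (23.5%, against 5.83% of all features) and below in 0 (against 8.79%), with Mtg1 at 0.23 and Tfb1m at 0.18. Of 16 mitochondrial aminoacyl-tRNA synthetases tested, 10 were positive (median 0.06). Of the 16, 2 lay wholly above saline and 1 wholly below (12.5% and 6.25%, against 5.83% and 8.79% of all features). Aars2 at 0.23 and Ears2 at 0.27 had the smallest p.

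Regulators of mitochondrial transcription and biogenesis had 5 positive and 8 negative values (median -0.05, range -0.37 to 0.32). LDL arrays all lay above saline in 3 of these 13 genes and all below in 3. That is 23.1% each way, against 5.83% and 8.79% of all features. The 2 with the smallest p were both lower. Pprc1, a coactivator, had -0.02 ± 0.02 with saline and -0.40 ± 0.26 with LDL (mean ± SD, n = 3 each), a difference of -0.37 (SE 0.14, adjusted p = 0.617 in limma). Nrf1, whose letters were searched in the promoters, had 1.88 ± 0.13 with saline and 1.60 ± 0.05 with LDL, a difference of -0.27 (SE 0.11, adjusted p = 0.627 in limma).

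The neighbouring large machines gave medians nearer to 0. The 83 cytosolic ribosomal protein genes tested had a median of -0.00252, with 40 positive and 43 negative, and in 0 of them did the groups not overlap, against 14.6% of all features. Rps6 had the smallest p, with 0.22 (SE 0.12, adjusted p = 0.755 in limma). Many of these genes have near-identical copies, whose signal cannot be separated here. The 83 nuclear-encoded respiratory chain subunits tested had a median of 0.00679, with 43 positive and 40 negative. Of these, 2 lay wholly above saline and 0 wholly below (2.41% and 0%, against 5.83% and 8.79% of all features). Cox6a2 stood out among them at 0.78 (SE 0.20, adjusted p = 0.462 in limma), from 1.12 ± 0.37 with saline to 1.89 ± 0.19 with LDL (mean ± SD, n = 3 each), and did not pass. No transcript encoded in mitochondria was matched by accession, so the products of the mitoribosome were not analysed here.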

How the data were processed

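Gene expression was measured on 6 one-colour Agilent arrays. The cRNA carried cyanine-3, per the labels' protocols, and the deposited scanner files hold intensity values on a linear scale. The processed signal is the software's background-corrected value, and its 75th percentile ran from 730.4 to 961.7 over the arrays. Named in the submitters' processing notes are limma 3.34.9, R 3.4.4 and Agilent Feature Extraction 10.7.3.1. Besides these, the authors deposited log2 values of the same arrays, with a normalization not stated in the labels or headers, and these served as an alternative.

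Processed signals were taken to log2, and the array's own 75th percentile was subtracted. Outlier-flagged spots and controls were dropped, and repeat spots averaged per probe. A probe was tested if at least 50% of its spots were well above background on all 3 arrays of a group and each group had at least 2 values. Unversioned RefSeq accessions were matched to the gene table of GRCm38.p6 (28331 of 55681 probes), used for names. The files hold accessions and no symbols, so the name rule was applied to the matched symbols. Each gene was read from its brightest probe by mean, which left 24213 features.

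The comparison used lmFit and eBayes of limma 3.58.1 (R 4.3.3), two-sided and without covariates. An exact permutation of 3 against 3 cannot go below p = 0.1. Pairing by replicate number was checked by correlating deviations from the group means. Same-numbered arrays gave 0.236, -0.0812 and 0.206, and differently numbered ones from -0.273 to 0.0791. The values of replicates 1 and 3 were above all of the differently numbered ones, and that of replicate 2 was not. The check does not settle pairing, so the main fit is unpaired and a replicate block is among the alternatives. The members and lists were chosen with earlier results of these data known. Genes were named by the smallest p in each direction (up to 8), extreme values, spread, disagreeing probes or a role set in advance, and other names were picked with their values in view. Alternatives were normexp with an offset of 50, other scalings, the authors' values, other filters and probe rules, blocks for slide row or replicate number, and leaving out arrays 1 at a time. Plots came from matplotlib 3.10.9.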

Additional observations from a re-analysis of the deposited data

How the results depend on the processing

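Of the 77 genes, 0 passed in limma under any of the 18 settings fitted to all features, and the smallest adjusted p of a gene lay between 0.295 (without saline replicate 2) and 1. Their median stayed positive in all 18, between 0.01 (saline replicate 1 omitted) and 0.15 (saline replicate 2 omitted). It moved by less than 0.13, the SD of the genes' median level between replicate arrays, which is a wide yardstick for a fold change. Centring arrays on the median raised it to 0.11, and normexp with quantile normalization gave 0.08, where the difference between subunits was 0.000478. With the proteins under other symbols added it was 0.07. Leaving out the low Mrps28 spot was chosen after seeing the data.

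Over all features, 5 were higher and 28 lower. The higher count became 9 with normexp and quantile normalization, 8 with median centring, 8 with the authors' values, and 0 in slide row 1, in the fit blocked by slide row, or with no background filter. The lower count became 15 with slide row as a block and 0 without the filter or in slide row 1. Omitting single arrays left between 0 and 7 features higher and between 0 and 25 lower. With 0 called in either direction, 1777 features had an unadjusted p below 0.05 in limma without the filter, 870 in slide row 1, 994 without LDL replicate 2, 1556 without saline replicate 3 and 1380 without LDL replicate 3. The replicate block gave 3 higher features and 10 lower ones, 0 of them among the 77 genes. Of these genes 1 then had an unadjusted p below 0.05 in limma, in place of 2 (1.3%, against 8.24% of all features), and the medians of the genes are the same by construction. Fits with fewer arrays have fewer degrees of freedom, and for the others the cause was not tested.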

Other observations

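The strip of low spots on saline replicate 3 reaches beyond these genes. Of its 89 spots, 8 carried an outlier flag and 55 were not well above background on that array. The block of array rows and columns that bounds them holds 1290 spots. Over the features tested, with 1 probe a gene, 57 were lower on saline replicate 3 than on each other array by at least 3 on the log2 scale, and 0 features were that low on any other single array. Such a value raises the apparent effect of LDL, as for Mrps28, where the log2 fold change was 1.80 with it and -0.04 without it.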
